A study of Homo sapiens with 6 samples.

Results

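The genes of sphingomyelin and ceramide 1-phosphate metabolism were followed in SW620, an established human colorectal cancer cell line, after stable knockdown of DKC1, which encodes the pseudouridine synthase dyskerin. The 7 genes SGMS1, SGMS2, SMPD2, SMPD4, SMPDL3B, CERK and PLEKHA8 were taken by their symbols from a table of 19672 genes, and all 7 passed the filter on low counts, as did 13299 genes in all. The 6 libraries of messenger RNA fell into 3 groups of 2: the DKC1 knockdown lines C3 and C6, and a scramble line with a non-targeting shRNA. All of these cells carried a lentiviral shRNA construct and were kept under puromycin selection without further treatment, so the scramble cells share the vector and the drug with the knockdown lines. The design names a pair of shRNAs against DKC1, shDKC1-2 and shDKC1-3, and the sources used here do not say which of them C3 and C6 carry, or whether each line is a single clone. Each group, scramble included, is thus 1 line. Differences between C3 and C6, and of either from scramble, cannot be told apart from differences between any 2 SW620 lines.

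Sphingomyelin is made when a sphingomyelin synthase moves the phosphocholine head group of phosphatidylcholine onto ceramide, which releases diacylglycerol. Sphingomyelinases split it back into ceramide and phosphocholine at the plasma membrane, the endoplasmic reticulum or the lysosome. Ceramide can instead be phosphorylated by ceramide kinase to ceramide 1-phosphate, a lipid linked to cell survival and eicosanoid production, or be glucosylated to enter the glycosphingolipids. Ceramide is associated with growth arrest and cell death, so the balance among these fates has been studied in colorectal and other cancers.

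Total counts per library lay between 26077966 and 31021000. DKC1 stood at 144.5 and 149 CPM, the read count scaled by library size after TMM normalisation, in C3 and at 70.3 and 67.1 CPM in C6, against 320 and 315 CPM in scramble. The C3 library with 144.5 CPM has a genotype tag that reads control and was grouped by its title. Of 8 markers of intestinal epithelium 7 were measured, CDX1 being at 0 in every library. Their summed level ran from 5930 to 6120 CPM in C3, from 7020 to 7100 CPM in C6 and from 7390 to 7930 CPM in scramble. KRT8 had the largest mean level among them, so the sum weighs it most. The markers of other cell types summed to at most 30.0 CPM for fibroblasts, 6.28 for endothelium and 3.05 for leukocytes, and COL1A2, COL3A1, DCN, CDH5, PTPRC and CD3E were at 0 throughout. The part of the epithelial marker level in the results was not tested. By their titles the 2 libraries of each line are biological replicates, but whether these were separate cultures is not said, so p-values measure only the spread between such libraries.

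The 2 genes with the largest changes in C6, in opposite directions, were PLEKHA8 and SMPDL3B, and the 250 bases before their start sites are shown because the windows differ in make-up. The RefSeq promoter table (build GRCh38.p14) held an entry for 6 of the 7 genes, and CERK was not among them. Capitals mark matches on either strand to the GC box GGGCGG, the CCAAT box CCAAT, the TATA box TATAAA, the E-box CACGTG or the cyclic AMP response element TGACGTCA. Both windows lie on the plus strand, at chr7:30028162-30028411 for PLEKHA8 and at chr1:27934750-27934999 for SMPDL3B.
PLEKHA8: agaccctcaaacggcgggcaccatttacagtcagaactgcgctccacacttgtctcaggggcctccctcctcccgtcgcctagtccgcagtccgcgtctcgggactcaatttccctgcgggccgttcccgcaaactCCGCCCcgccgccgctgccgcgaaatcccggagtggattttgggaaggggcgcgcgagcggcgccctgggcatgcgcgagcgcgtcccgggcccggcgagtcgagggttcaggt
SMPDL3B: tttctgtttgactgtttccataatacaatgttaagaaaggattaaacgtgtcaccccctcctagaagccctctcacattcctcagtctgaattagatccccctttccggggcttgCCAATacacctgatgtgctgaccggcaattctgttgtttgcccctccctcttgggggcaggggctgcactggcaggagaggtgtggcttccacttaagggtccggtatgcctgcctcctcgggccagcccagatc
The PLEKHA8 window was 68.8% G or C and held a GC box, a motif found in 42.3% of 27305 promoters of this length. The SMPDL3B window was 53.6% G or C, below the median of 58.0%, and held a CCAAT box, found in 33.0% of promoters. Of the 6 genes with an entry, 4 had a GC box in the window (SGMS1, SMPD2, SMPD4 and PLEKHA8). None of the 6 had a match to the TATA box, the E-box or the cyclic AMP response element. The SGMS1 entry starts 1228 bases inside the gene span used here, whereas the other entries start at the edge of theirs. These matches describe the letters of the windows and nothing else.

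Of the synthases, SGMS2 rose in C6 and SGMS1 passed the test in neither line. SGMS1, the main Golgi sphingomyelin synthase (chromosome 10, 50305600 to 50625184, minus strand; coordinates of GRCh38 throughout), had 33.8 and 35.7 CPM in C3 and 37.7 and 36.1 CPM in C6, against 36.0 and 36.0 CPM in scramble. All 6 libraries thus lay within a few CPM of each other. By edgeR's quasi-likelihood test its log2 fold change was −0.05 in C3 (95% interval −0.23 to 0.12, adjusted p = 0.697) and 0.04 in C6 (−0.14 to 0.21, adjusted p = 0.75). SGMS2, the synthase of the plasma membrane (chromosome 4, 107824563 to 107915047, plus strand), had 21.8 and 19.7 CPM in C3 and 25.6 and 22.9 CPM in C6, against 17.4 and 18.4 CPM in scramble. It was the one member with all 4 knockdown libraries above both scramble libraries, a separation in one direction or the other that 30.1% of all genes tested showed. SGMS2 rose in C6, by 0.44 ± 0.10 (SE) on the log2 scale (adjusted p = 0.00308), or 1.35-fold. In C3 the difference was 0.22 ± 0.11 and did not pass (adjusted p = 0.155). The test of C6 against C3 did not pass (0.22, 95% interval 0.0018 to 0.44, adjusted p = 0.0881).

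Levels of the synthases can be set side by side per kilobase of exon, with all annotated exons of a gene joined. The levels and shares depend on that choice of length. SGMS1 stood at 5.4 CPM per kb in C3, 5.74 in C6 and 5.60 in scramble, and SGMS2 at 2.72 in C3, 3.17 in C6 and 2.34 in scramble. SGMS2 made up 35.2% and 31.7% of their joint level in C3 and 36.4% and 34.8% in C6, against 28.9% and 30.1% in scramble. The knockdown libraries all had the larger SGMS2 share, with the lowest of them at 31.7% in C3.

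**Figure D1:**
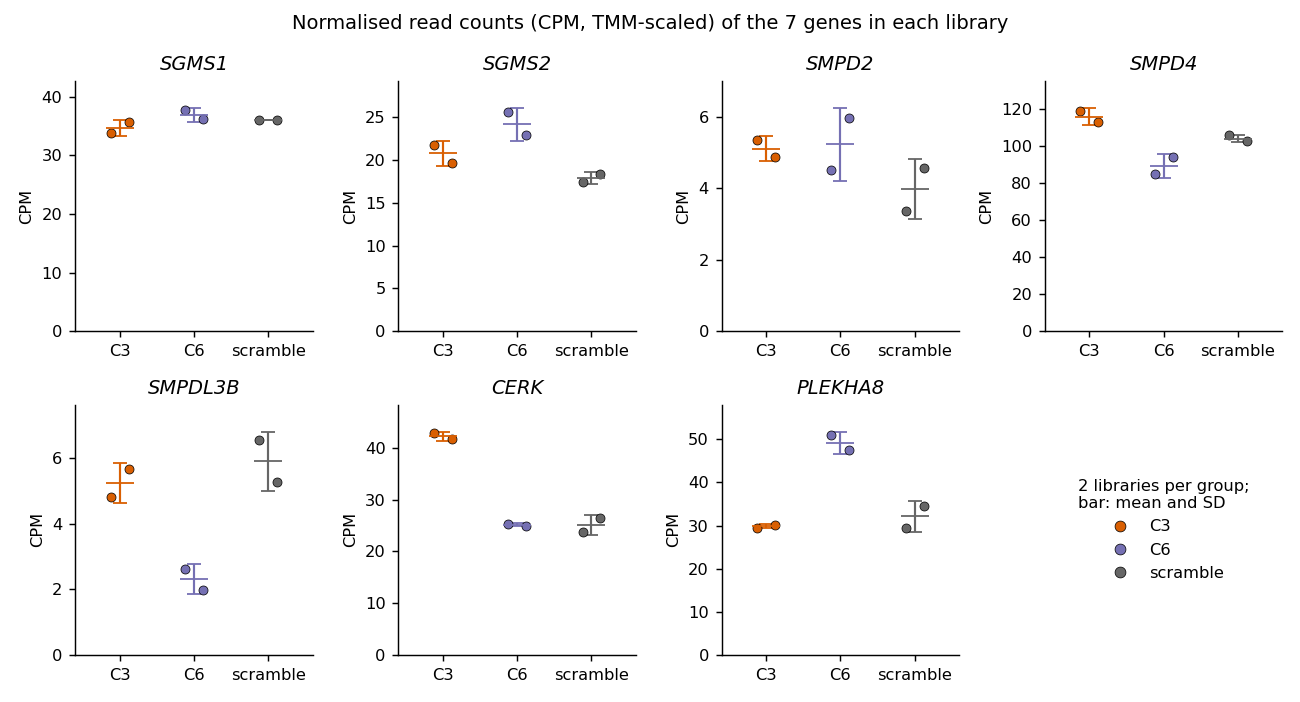
Normalised read counts (vertical axes, CPM after TMM scaling, each from 0) of the 7 genes in every library, with C3, C6 and scramble along the horizontal axis. Points are libraries and bars the mean and SD of 2 libraries. CERK stands apart in C3 at 42.9 and 41.7 CPM, while SMPDL3B is lowest and PLEKHA8 and SGMS2 are highest in C6.

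Of the sphingomyelinases and their relatives, SMPD4 and SMPDL3B fell in C6, and none passed the test in C3. SMPD4, a neutral sphingomyelinase of the endoplasmic reticulum and nuclear envelope (chromosome 2, 130151392 to 130181757, minus strand), had 119 and 113 CPM in C3 and 84.8 and 94.1 CPM in C6, against 106 and 103 CPM in scramble. Both C3 libraries lay above scramble and both C6 libraries below it. Such a separation from scramble, in either direction, was found for 62.9% of all genes tested in C3 and 72.9% in C6. SMPD4 fell by 0.22 on the log2 scale in C6 (SE 0.07, edgeR adjusted p = 0.0172), while the 0.16 ± 0.07 of C3 did not pass (adjusted p = 0.115). The call in C6 was lost without scramble replicate 1 (adjusted p = 0.0996), scramble replicate 2 (0.0569) or C6 replicate 1 (0.158). The difference of C6 from C3, −0.38 ± 0.07 (adjusted p = 0.00035), kept its call under every alternative tried. SMPD4 shares 815 exon bases with MZT2B on the opposite strand and is 97.8% identical over 1533 bases to another annotated transcript with no row in the counts. Its reads are therefore uncertain where the counting could not tell these apart. MZT2B, a microtubule-organising protein gene, had 60.4 and 66.0 CPM in C3 and 76.9 and 75 CPM in C6, against 59.5 and 54.2 CPM in scramble. It rose in C6 by 0.42 (adjusted p = 0.000361), which is the direction opposite to SMPD4.

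SMPDL3B, a membrane-anchored relative of acid sphingomyelinase (chromosome 1, 27935000 to 27959152, plus strand), showed the largest change of the 7 genes. It had 4.81 and 5.66 CPM in C3 and 2.62 and 1.98 CPM in C6, against 6.54 and 5.25 CPM in scramble. The C6 libraries lay well below all others, whereas C3 and scramble overlapped. SMPDL3B fell in C6 to 39.0% of scramble, a log2 fold change of −1.36 ± 0.22 (SE, adjusted p = 0.000144), and lay below C3 by −1.19 ± 0.22 (adjusted p = 0.000423). In C3 the log2 fold change was −0.17, with a 95% interval of −0.61 to 0.26 (adjusted p = 0.592). These values rest on 69 and 55 counts in C6, against 176 and 141 counts in scramble. SMPD2, a neutral sphingomyelinase (chromosome 6, 109440724 to 109443919, plus strand), was also thinly covered, with 91 to 166 counts per library. It had 5.36 and 4.87 CPM in C3 and 4.52 and 5.97 CPM in C6, against 3.38 and 4.58 CPM in scramble. Its C6 and scramble libraries overlapped. The log2 fold changes of 0.36 in C3 (95% interval −0.09 to 0.82, adjusted p = 0.242) and 0.40 in C6 (−0.06 to 0.85, adjusted p = 0.14) did not pass. Without scramble replicate 1 they were 0.16 in C3 and 0.20 in C6, and without scramble replicate 2 they were 0.60 and 0.64 in the same lines. Without C6 replicate 2 the value in C6 was 0.19, and it was not called in any of these. SMPD2 shares 409 exon bases with PPIL6, whose level was 1.39 to 2.17 CPM in the knockdown libraries and 3.16 and 1.97 CPM in scramble.

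CERK, the ceramide kinase that makes ceramide 1-phosphate (chromosome 22, 46684410 to 46738252, minus strand), changed in C3 alone among the lines. It had 42.9 and 41.7 CPM in C3 and 25.4 and 24.9 CPM in C6, against 23.8 and 26.5 CPM in scramble. Both C3 libraries lay above every other library, and the C6 libraries lay between those of scramble. CERK rose 1.68-fold in C3, by 0.75 ± 0.09 on the log2 scale (SE, edgeR adjusted p = 1.68e-05). In C6 the log2 fold change was 0.00084, with a 95% interval of −0.19 to 0.19 (adjusted p = 0.995). C6 was below C3 by −0.75 ± 0.09 (adjusted p = 4.7e-06). No annotated gene overlaps CERK, and no near-identical transcript of another gene was found for it. The genes with the most similar pattern over the 6 libraries, of 10415 ranked, were MTSS2 and CXXC5. Their root mean square differences from CERK, on log2 CPM centred on scramble, were 0.0584 and 0.0852. MTSS2 had 484 and 460 CPM in C3 and 259 and 280 CPM in C6, against 272 and 292 CPM in scramble.

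PLEKHA8, also called FAPP2, differs from the other members in its substrate: it carries glucosylceramide from the Golgi towards glycosphingolipid synthesis and binds phosphatidylinositol 4-phosphate. The gene (chromosome 7, 30028412 to 30130483, plus strand) had 29.4 and 30.1 CPM in C3 and 51 and 47.4 CPM in C6, against 29.5 and 34.6 CPM in scramble. The C6 libraries were above all others, and C3 overlapped scramble. PLEKHA8 rose in C6 by 0.62 ± 0.09 (SE, adjusted p = 5.35e-05), or 1.53-fold, and exceeded C3 by 0.73 ± 0.09 (adjusted p = 9.09e-06). In C3 the log2 fold change was −0.11 (95% interval −0.31 to 0.09, adjusted p = 0.441). A pseudogene, PLEKHA8P1, is 98.0% identical over 1540 of 7835 transcript bases and has no row in the counts, so the share of its reads within PLEKHA8 is uncertain. Antisense genes without a row in the counts also share exon bases with SGMS1 (207), SGMS2 (600) and SMPDL3B (252), and one on the same strand shares 140 with PLEKHA8.

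**Figure D2:**
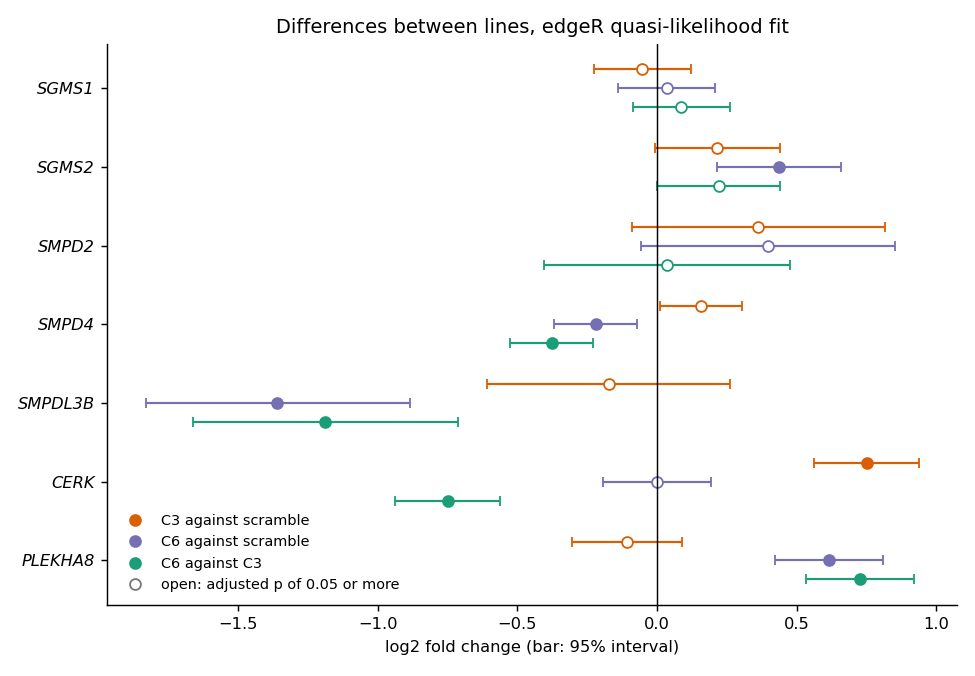
Log2 fold changes (horizontal axis) of the 7 genes, from SGMS1 at the top to PLEKHA8 at the bottom, in C3 against scramble, C6 against scramble and C6 against C3. Bars are 95% intervals and filled points have an adjusted p under 0.05; the only filled point for C3 against scramble is CERK at 0.75.

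Counted over the members, 1 of 7 was called in C3 (CERK, higher), where 24.3% of all genes tested were called. Of all genes 12.4% were called higher and 11.9% lower there. In C6 4 of 7 were called, beside 46.7% of all genes: SGMS2 and PLEKHA8 higher (23.8% of all genes) and SMPD4 and SMPDL3B lower (22.8%). These shares stand near those of the whole table. The libraries of C3 did not overlap those of scramble for 5 of 7 members, beside 62.9% of all genes tested. For C6 this held for 5 of 7 members, beside 72.9%. By edgeR's quasi-likelihood test 0 of 7 members passed with one shared sign in both lines, and the count was also 0 with DESeq2. At an unadjusted p under 0.05 it was 0 with all libraries, and 1 without scramble replicate 2 or without C3 replicate 2. With opposite signs at that unadjusted p the count was 1 with all libraries, for SMPD4, higher in C3 and lower in C6. It was 0 with DESeq2, upper-quartile scaling or the replicate block. Of all genes 10.0% passed the adjusted threshold in both lines with one sign and 4.93% with opposite signs. The shares of all genes at the unadjusted p were not taken. The member counts at the unadjusted p therefore cannot be set against these percentages. CERK was the member called in C3 and not in C6, as were 9.32% of all genes, and the 4 members called in C6 were not called in C3, as for 31.7%. C3 and C6 are set against the same scramble libraries, so their values are given side by side without a correlation. The median log2 fold change of the members was 0.16 in C3 and 0.04 in C6, beside 0.0013 and −0.01 over all genes.

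The direct comparison of the knockdown lines called 4 of 7 members, CERK, SMPDL3B and SMPD4 lower and PLEKHA8 higher in C6 than in C3, where 49.2% of all genes were called, 25.1% higher and 24.1% lower. In the mean of both lines against scramble 4 of 7 were called, beside 32.9% of all genes, 16.6% higher and 16.3% lower. These were SGMS2 (log2 fold change 0.33), CERK (0.38) and PLEKHA8 (0.25), which were higher, and SMPDL3B (−0.77), which was lower. For all of them but SGMS2 the knockdown libraries overlapped those of scramble. Without scramble replicate 1 the mean had 1 call, with DESeq2 it had 2, and with the 4 knockdown libraries as 1 group it had 0 by edgeR. SGMS2 also lost its call in the mean without scramble replicate 2 (adjusted p = 0.0558), and PLEKHA8 without C3 replicate 2 (0.0547), without C6 replicate 1 (0.0659) and with upper-quartile scaling (0.0596).

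Genes next to each other on a chromosome shifted together in parts of these genomes, so each member was set beside its 50 nearest tested neighbours. PLEKHA8 lies where neighbours were higher in C6: their median log2 fold change was 0.33, 26 of 50 were called higher and 4 lower. PLEKHA8 exceeded 36 of these 50. With the running median of 51 genes entered as an offset, its difference in C6 was 0.27 ± 0.09 (adjusted p = 0.0259), its difference of C6 from C3 was 0.47 ± 0.09 (adjusted p = 0.000562), and its call in the mean was lost (0.03, adjusted p = 0.792). Around SGMS1 neighbours were lower in C6, with a median of −0.20 and 21 of 50 called lower, and around SMPD2 the median was −0.26 with 19 of 50 called lower. With the offset in edgeR's fit, SGMS1 stood at 0.23 in C6 (adjusted p = 0.0339) and SMPD2 at 0.64 (adjusted p = 0.0255). Neither was called without the offset. Of the 50 neighbours of SGMS1, 14 lay above it in C6. The offset was entered as a fixed value, so the SE and p-values given with it leave out the spread of the neighbours. In C6 against C3 the offset also brought SGMS1 (0.34, adjusted p = 0.00342) and SGMS2 (0.34, adjusted p = 0.0146) past the threshold. SMPD4 lost its call in C6 (−0.15, adjusted p = 0.0947).

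CERK in C3, and SMPDL3B, SGMS2 and SMPD2 in C6, lay at or near the end of the range of their neighbours. None of the 50 neighbours of CERK, 0, had a larger log2 fold change in C3, where their median was −0.06, and CERK stood at 0.81 with the offset (adjusted p = 9.65e-06). SMPDL3B lay below 48 of its 50 neighbours in C6, whose median was 0.00017. SGMS2 lay above 48 of its 50 in C6, whose median was −0.07. SMPD2, which was not called in C6 without the offset, lay above 47 of its 50.

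**Figure D3:**
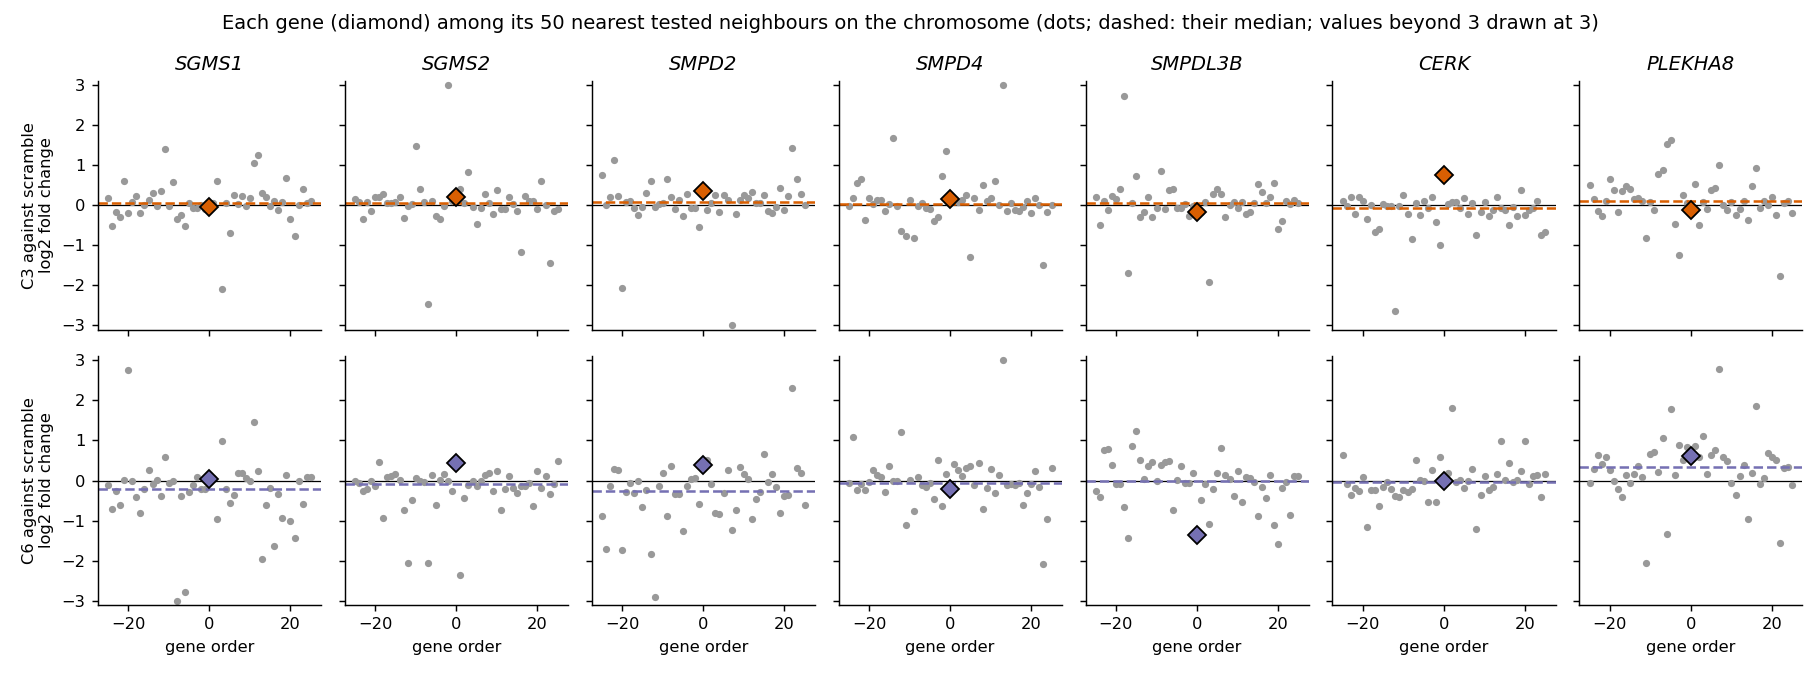
Log2 fold changes (vertical axes; C3 against scramble above, C6 against scramble below) of each gene (diamond) and its 50 nearest tested neighbours (dots) by gene order along the chromosome (horizontal axes), with the neighbours' median dashed. The PLEKHA8 neighbours sit above 0 in C6 with a median of 0.33, and CERK lies above all of its neighbours in C3.

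Per kilobase of exon, SMPD4 had the highest level of the members in every group, at 15.7 CPM per kb in C3, 12.1 in C6 and 14.1 in scramble. The order of the genes depends on the length used. The joined exons of PLEKHA8 span 10886 bases, against 7835 for its longest coding transcript. The order with other lengths was not tested. CERK came second in C3 at 8.57 ± 0.177 CPM per kb (SD, n = 2), ahead of SGMS1 at 5.4 ± 0.211. In C6 SGMS1 stood at 5.74 ± 0.182 and CERK at 5.10 ± 0.06, and in scramble SGMS1 at 5.60 ± 0.005 and CERK at 5.09 ± 0.381. PLEKHA8 followed at 4.52 ± 0.238 in C6 and 2.95 ± 0.333 in scramble. In C3 PLEKHA8, SGMS2 and SMPD2, at 2.73, 2.72 and 2.54 CPM per kb, lay within their spread. SMPDL3B was last in C3 at 1.96 ± 0.224 and in C6 at 0.861 ± 0.17, while in scramble its 2.21 ± 0.341 was within the spread of SGMS2 (2.34 ± 0.0934) and SMPD2 (1.98 ± 0.421).

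The rest of the route was read from 4 lists of 34 genes, of which 31 were tested. In C3 3 rose and 3 fell, 19.4% of them beside 24.3% of all genes, and in C6 9 rose and 5 fell, 45.2% beside 46.7%. VAPB rose and PCYT1B fell in both lines. Among the other sphingomyelin enzymes, SMPD1, the acid sphingomyelinase of lysosomes, had 13.3 and 11.3 CPM in C3 and 22.4 and 25.3 CPM in C6, against 13.6 and 14.1 CPM in scramble. It rose in C6 by 0.78 ± 0.12 (SE, edgeR adjusted p = 5.36e-05), and it was the only one of the 4 tested genes of its list to pass against scramble in either line. SAMD8, which makes ceramide phosphoethanolamine, stood at 40.6 CPM in C3, 49.8 in C6 and 45.7 in scramble. SMPD3, neutral sphingomyelinase 2, had 1.26 and 0.107 CPM in C3 and 2.35 and 2.05 CPM in C6, against 1.60 and 2.76 CPM in scramble. SMPDL3A, a phosphodiesterase related to acid sphingomyelinase, averaged 2.88 CPM in C3, 1.67 in C6 and 1.93 in scramble. SMPD3 and SMPDL3A did not pass against scramble in either line. The median log2 fold change of the list was −0.17 in C3 and 0.07 in C6.

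The list of ceramide transfer from the endoplasmic reticulum to the Golgi also holds the partners of the transfer protein at membrane contact sites. Of its 12 tested genes 9 were called in C6, 6 higher and 3 lower (75%, beside 46.7% of all genes). In C3 3 of 12 were called, 2 higher and 1 lower (25%, beside 24.3%). The list had a median log2 fold change of 0.03 in C3 and 0.19 in C6, where all genes had 0.0013 and −0.01. VAPB, an endoplasmic reticulum anchor of the transfer protein, had 113 and 117 CPM in C3 and 138 and 132 CPM in C6, against a mean of 79.6 ± 0.474 CPM in scramble (SD, n = 2). Its log2 fold change was 0.53 in C3 and 0.76 in C6, beside a running median of 51 genes, itself included, of 0.44 and 0.48. With that median as an offset, it stood at 0.09 in C3, not called (adjusted p = 0.365), and at 0.28 in C6 (adjusted p = 0.00238). PI4KB, a Golgi kinase that makes phosphatidylinositol 4-phosphate, rose in C6 by 0.69 ± 0.08, to 71.6 and 74.6 CPM against 44.7 and 46.2 CPM in scramble. VAPA, the other anchor, rose in C6 by 0.32 ± 0.07. PPM1L, a phosphatase that acts on the transfer protein, fell by 1.61 on the log2 scale in C6 (SE 0.17), to 3.08 and 4.03 CPM against a mean of 10.9 ± 0.193 CPM in scramble (SD, n = 2). In C3 it had 15.2 and 12.2 CPM, not called.

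CERT1 and CSNK1G2 were picked for description after their values were seen. CERT1, the ceramide transfer protein itself, had 25.2 and 21.2 CPM in C3 and 33.9 and 31.5 CPM in C6, against 22.2 and 27.2 CPM in scramble. It rose in C6 by 0.41 ± 0.11 (adjusted p = 0.00889). The running median there, CERT1 included, was 0.37, and with that offset CERT1 was not called (0.04, adjusted p = 0.846). Its call was also lost without scramble replicate 1 (0.27, adjusted p = 0.119) and without C6 replicate 1 (adjusted p = 0.0728). CSNK1G2, a kinase of the transfer protein, fell by 0.43 on the log2 scale in C6 (SE 0.06), and stood at −0.17 with the offset, not called (adjusted p = 0.0509). With the offset the list had 8 of 12 calls in C6, 7 higher and 1 lower, and 0 of 12 in C3. Of all 13299 genes tested, 5420 were called in C6 and 3010 in C3 with the offset. DESeq2 gave 1 of 12 in C3, where it called 2340 of all genes.

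Among 8 tested genes of glycolipid and ceramide 1-phosphate transfer and turnover, 1 rose and 1 fell in each line, 25% of the list beside 24.3% of all genes in C3 and 46.7% in C6, with a median of −0.0070 in C3 and 0.18 in C6. PLPP3, a lipid phosphate phosphatase, rose in C3 by 0.45 ± 0.10 (adjusted p = 0.00346), to 31.1 ± 2.03 CPM (SD, n = 2) against 22.7 ± 2.38 CPM in scramble, and with scramble replicate 1 left out it did not pass (adjusted p = 0.0563). PLPP2, a phosphatase of the same family that was picked after its values were seen, had 19.5 and 19.6 CPM in C3 and 34.3 and 29 CPM in C6, against 25.0 and 26.5 CPM in scramble. It was lower in C3 (−0.40) and higher in C6 (0.30, adjusted p = 0.0233), and the call in C6 was lost with upper-quartile scaling (adjusted p = 0.0652), with DESeq2 (0.0952) and with the neighbours' offset (0.428). The C6 call did not stand with scramble replicate 1 (0.129), scramble replicate 2 (0.0571) or C6 replicate 1 (0.236) left out, nor the C3 call without scramble replicate 2 (0.0884), C3 replicate 1 (0.0547) or C3 replicate 2 (0.054). PLEKHA3, also called FAPP1, fell by 0.47 on the log2 scale in C6 (SE 0.10), beside a running median, itself included, of −0.54. With the offset it turned to 0.07 (adjusted p = 0.627). UGCG, the glucosylceramide synthase that feeds the carrier PLEKHA8, stood at 25.4 CPM in C3, 25.8 in C6 and 24.2 in scramble, and GLTP, a glycolipid transfer protein, at 20.8, 24.3 and 21.3 CPM in the same groups. Neither passed in either line. PLA2G4A, the phospholipase that ceramide 1-phosphate activates, was at 0 in every library, which allows up to 0.0968 to 0.114 CPM at 3 counts per library, a limit that covers counting error only.

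Of 7 genes that supply phosphatidylcholine, the head-group donor of the synthases, 1 fell in C3 (14.3% of the list, beside 24.3% of all genes), and 1 rose and 1 fell in C6 (28.6%, beside 46.7%), with a median of −0.04 in C3 and −0.10 in C6. PCYT1B, an isoform of the enzyme that activates phosphocholine for this synthesis, had 8.36 and 6.23 CPM in C3 and 1.06 and 1.04 CPM in C6, against 12.3 and 11.1 CPM in scramble. Both lines lay below scramble, C6 by the larger amount. It fell by 0.68 on the log2 scale in C3 (SE 0.17, adjusted p = 0.00755) and fell by 3.47 in C6 (SE 0.22, adjusted p = 7.61e-09). The call in C3 was lost with DESeq2 (adjusted p = 0.0587), without scramble replicate 1 (0.0818) and without C3 replicate 2 (0.118). CHKA, a choline kinase, rose in C6 by 0.22 ± 0.06 (adjusted p = 0.00737), and stood at 0.06 with the neighbours' offset, not called (adjusted p = 0.487). Its call was also lost without scramble replicate 2 (adjusted p = 0.069) and without C6 replicate 1 (0.0571). CHPT1, a choline phosphotransferase, and PEMT, which methylates phosphatidylethanolamine, did not pass in either line, with log2 fold changes of 0.25 and −0.19 in C6.

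**Figure D4:**
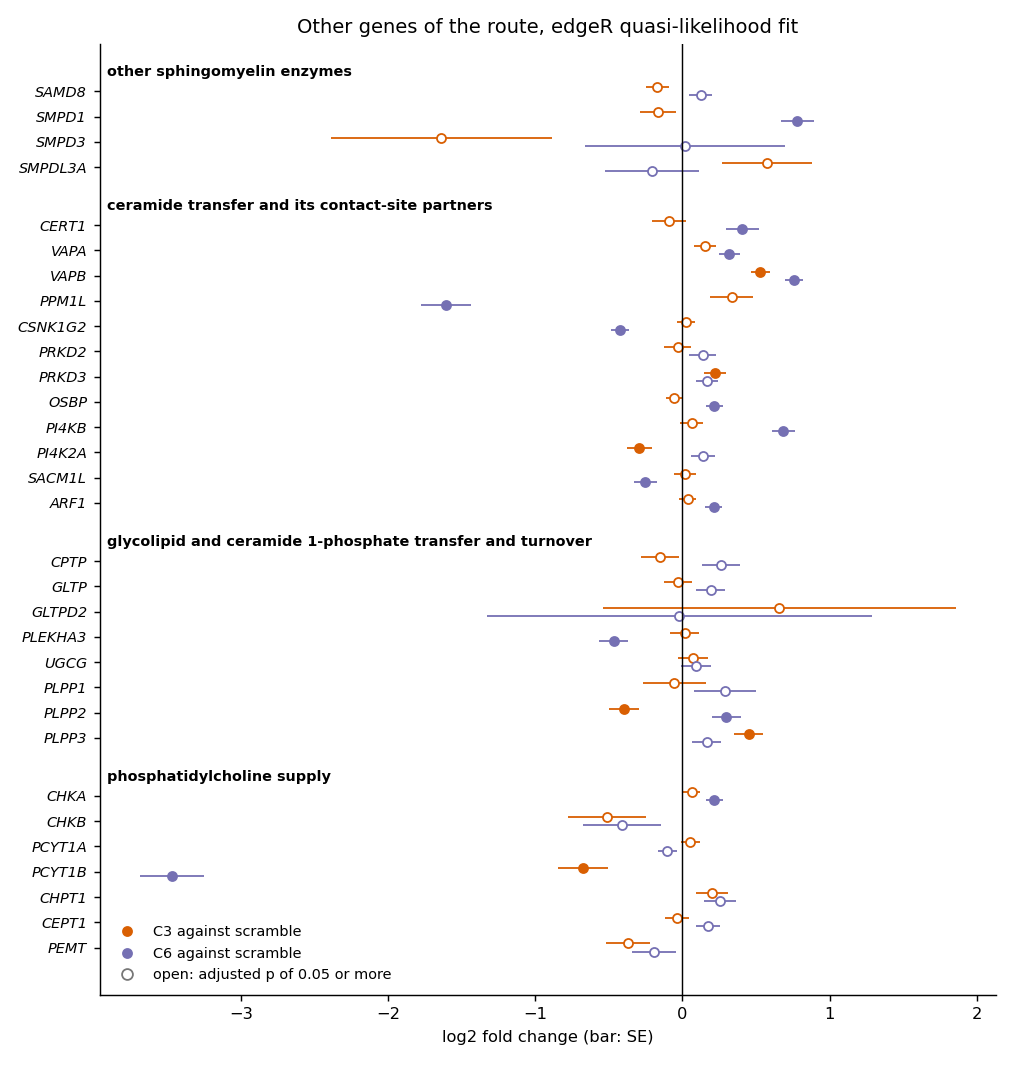
Log2 fold changes (horizontal axis, bars are SE) of the 31 tested genes of the 4 lists (vertical axis, grouped by list) in C3 and C6 against scramble; filled points have an adjusted p under 0.05. PCYT1B lies farthest from 0 in C6, at −3.47, and stands at −0.68 in C3. Most genes of ceramide transfer and its contact-site partners are filled for C6 only.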

How the data were processed

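Whole-number read counts per gene were deposited for 6 libraries, unscaled per the file headers. Trimmomatic 0.38, HISAT2 2.1.0, StringTie 2.1.3b, DESeq2 and build hg38 appear in the submitters' processing notes. How reads were assigned to genes, and whether by strand, could not be read from the labels; per the labels' protocols the kit was stranded and poly(A)-selecting. Groups came from the titles. edgeR 4.0.16 (R 4.3.3, TMM, filterByExpr, robust quasi-likelihood fit) was fitted to all 6 libraries as 3 groups with 3 residual degrees of freedom; Benjamini-Hochberg adjustment ran over all 13299 genes, with a threshold of 0.05. SE is the log2 fold change over the root of the F statistic. Replicates differed by more than sampling noise (chi-square per degree of freedom 6.04 to 8.20). RefSeq gave positions for 19446 of 19672 genes, and GENCODE 29 exon lengths, strand and overlaps. Copies were transcripts at least 95% identical over 200 bases or more (blastn). The offset is the running median of 51 tested genes, the gene itself included, entered as a fixed value. The fit was tested on simulated data. Alternatives were RLE and upper-quartile scaling, 2 other filters, DESeq2 1.42.0, a replicate block, each library left out, the compared groups alone, the offset and the knockdown libraries as 1 group. From each list the text names the 4 genes that ranked first by p in the mean of both lines. CERT1, CSNK1G2, PLPP2 and PLA2G4A, the last of which was not tested, were named outside that rule. The members and lists were chosen with earlier results of these data known. A marker gene is not reported here.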

Additional observations from a re-analysis of the deposited data

Results flagged for a closer look

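The difference from scramble was not the same in C6 and C3 for 4 of the 7 genes, by the test of C6 against C3 in edgeR's quasi-likelihood fit. The C6 value minus the C3 value was −1.19 on the log2 scale for SMPDL3B (adjusted p = 0.000423), −0.75 for CERK (4.7e-06), −0.38 (−0.377) for SMPD4 (0.00035) and 0.73 (0.726) for PLEKHA8 (9.09e-06), which stood at 0.47 with the neighbours' offset. In each of the 4 the C6 and C3 libraries did not overlap, nor did they for 74.1% of all genes tested.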

How the results depend on the processing

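Members' log2 fold changes were recomputed in 392 combinations of gene, comparison and setting, of which 356 kept direction and side of the threshold. Signs turned in 14, all for values not called under either setting. For CERK in C6 these were −0.00169 (RLE), −0.0602 (upper quartile), −0.00476 (filter of 1 CPM in 2 libraries), −0.00162 (DESeq2), and −0.0722 to 0.0804 with a library left out. For SGMS1 they were −0.0257 in C6 (upper quartile), 0.0632 in the mean with the neighbours' offset, and −0.0268 to 0.0127 in the mean with a library left out. Leaving out a library also turned PLEKHA8 in C3 (−0.218 to 0.0131), SMPD4 in the mean (−0.0674 to 0.00604) and SMPD2 in C6 against C3 (−0.18 to 0.222). Outside these 14, PLEKHA3 of the wider lists, called in C6, turned to 0.0694 with the offset.

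Members called in the mean numbered 4, against 2 with DESeq2, 0 with the knockdown libraries as 1 group and 1 to 4 with a library left out. Genes called in the mean numbered 4382, against 80 with the knockdown libraries as 1 group and 2444 to 4041 with a library left out, and in C3 3230 against 1946 to 3267. Upper-quartile scaling moved the median of all genes by at most 0.0612 on the log2 scale; higher calls were then 1642 of 4415 in the mean against 2212 of 4382, 2624 of 6309 in C6 against 3168 of 6205, and 1317 of 3157 in C3 against 1654 of 3230.

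The labels give each group replicates 1 and 2 without saying what they share. Replicate 1 deviations correlated at −0.285 (C3 and scramble), 0.199 (C6 and scramble) and −0.244 (C6 and C3) across genes, so the numbers were not taken as pairs. With the replicate block 1, 4, 4 and 4 members were called in C3, C6, the mean and C6 against C3, the same counts as without it, and 2935, 5878, 4014 and 6243 genes. Alternatives for the genes of the wider lists were added after seeing the data. SMPD2 and SMPDL3B had the lowest counts of the members, 55 to 176 per library.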
